A study of Sus scrofa with 27 samples.

Results

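The 10 genes described here belong to the NRF2 antioxidant response and were followed through ex vivo lung perfusion (EVLP) of pig lungs. They are NFE2L2, KEAP1, MAFF, SLC7A11, GCLC, GCLM, TXNRD1, SRXN1, HMOX1 and NQO1. The members were taken by gene name from the table of raw counts, which holds 31908 genes, and a member with fewer than 10 counts in every library would have been dropped. All 10 of 10 were found and kept, each as a single row.

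The lungs came from 9 Large-White pigs, taken in a non-heart-beating donor model and kept cold before perfusion. In the Gold Standard group (GS, 5 pigs), part of the perfusate was exchanged for fresh Steen solution at regular intervals. In the Pediatric Dialysis group (PD, 4 pigs), the circuit was instead connected to a hemodialysis unit with a small pediatric membrane. Methylprednisolone, cefuroxime and heparin were in the perfusate of GS and PD alike. The same lungs were biopsied at 0h, after the cold ischemia and before EVLP, and again at 6h and 12h, which gave 15 GS and 12 PD libraries. No non-perfused lung was followed over the same hours, and the age of the animals is not given in the sources used here. Values per pig are given in the order of pigs 9, 17, 44, 55 and 77 for GS and 2, 3, 4 and 5 for PD. A level is in CPM, which are counts scaled to a normalised library of a fixed size, and a change is a log2 fold change (FC) unless said otherwise.

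NRF2, the product of NFE2L2, is a transcription factor that KEAP1 binds and hands to a ubiquitin ligase, so that it is degraded in unstressed cells. Oxidants and electrophiles modify KEAP1, NRF2 then accumulates, pairs with a small Maf protein (MAFF, MAFG or MAFK) and binds antioxidant response elements near genes for glutathione synthesis, thioredoxin reduction, heme breakdown and quinone reduction. NRF2 is thus controlled largely at the protein level, which RNA counts do not show, and small Maf proteins without NRF2 can also pair with each other or with the repressor BACH1. In the lung, this response is known for protecting epithelium and endothelium against oxygen and reperfusion.

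Library depth and tissue make-up differed with the group. GS libraries held 26335584 to 67522703 counts on genes and PD libraries 14650700 to 21820935, so depth, like any other difference in handling, cannot be told apart from the group. Within GS, pigs 9 and 17 had the shallower libraries (26335584 to 41802541 counts) and pigs 44, 55 and 77 the deeper (51708598 to 67522703). Pig 17 also had the lowest share of counts on mitochondrial genes, 2.41% to 3.14%, against 5.74% to 9.49% in the other GS libraries. The library of PD pig 2 at 12h stood apart, with the fewest counts, the fewest genes seen (18979, against at least 20298 in the other PD libraries), a mitochondrial share of 1.65% against 4.97% to 11.6% and a summed level of 90320 CPM for 6 alveolar type 2 cell markers, against 17660 to 26510 in the other PD libraries at 12h. Markers of alveolar, endothelial, macrophage and stromal cells were present in all libraries, as a lung biopsy should show. Fewer cells of a type and less RNA per cell cannot be told apart in these bulk samples.

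Against 0h, perfusion went with higher MAFF, TXNRD1 and SRXN1 RNA in every pig of both groups at 6h and at 12h. Over the same hours the summed level of 6 T and B lymphocyte markers was lower than at 0h in all 9 pigs, with medians of 225, 164 and 144 CPM at 0h, 6h and 12h in GS and 181, 107 and 93.8 CPM in PD. In PD, the median of the alveolar type 2 markers was 42810, 24620 and 24530 CPM at 0h, 6h and 12h. That of the neutrophil markers was 712, 333 and 435 CPM. The medians were 138, 41.5 and 21.4 CPM for the red cell markers and 1681, 1372 and 1460 CPM for the macrophage markers. Each of these sums was lower than at 0h in 3 of 4 pigs at 6h and at 12h. The airway markers were lower at 6h than at 0h in 4 of 4 PD pigs (medians 1310 and 1605 CPM). At 12h the fibroblast and smooth muscle markers were lower than at 0h in 4 of 4 PD pigs (medians 1896 and 3389 CPM) and the endothelial markers higher in 4 of 4 (1985 and 1656 CPM). In GS at 12h the airway markers were lower in 5 of 5 pigs (258 and 352 CPM). The GS alveolar type 1 markers were higher than at 0h in 5 of 5 pigs at 6h and at 12h (medians 1511, 1757 and 1784 CPM at 0h, 6h and 12h). Their part in the changes of the members was not tested. Calls required an FC of 2-fold or more together with an adjusted p under 0.05, the adjustment covering all genes tested. In GS, 4 of the 10 members were called higher at 6h (MAFF, TXNRD1, SRXN1 and SLC7A11), where 5.5% of all genes tested were called higher, and 5 at 12h (GCLM in addition), where 6.99% were. By the adjusted p alone these were 5 members at 6h against 13.6% of all genes, and 8 at 12h against 17.6%. In PD, 1 member (MAFF) was called higher at 6h against 0.135% of all genes, and 3 (MAFF, TXNRD1 and SRXN1) at 12h against 3.22%. No member was called lower in any of these comparisons, against 5.56% and 8.66% of all genes in GS at 6h and 12h and 0.00643% and 2.76% in PD. The median log2 FC of the 10 members was 0.73 and 0.97 in GS at 6h and 12h and 0.63 and 1.39 in PD, whereas the median of all genes lay between −0.08 and −0.02. The paper had already reported MAFF as upregulated in both groups at both times. The members were chosen with earlier results of these data known. Their counts and medians beside those of all genes are thus a description and no independent test.

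**Figure D1:**
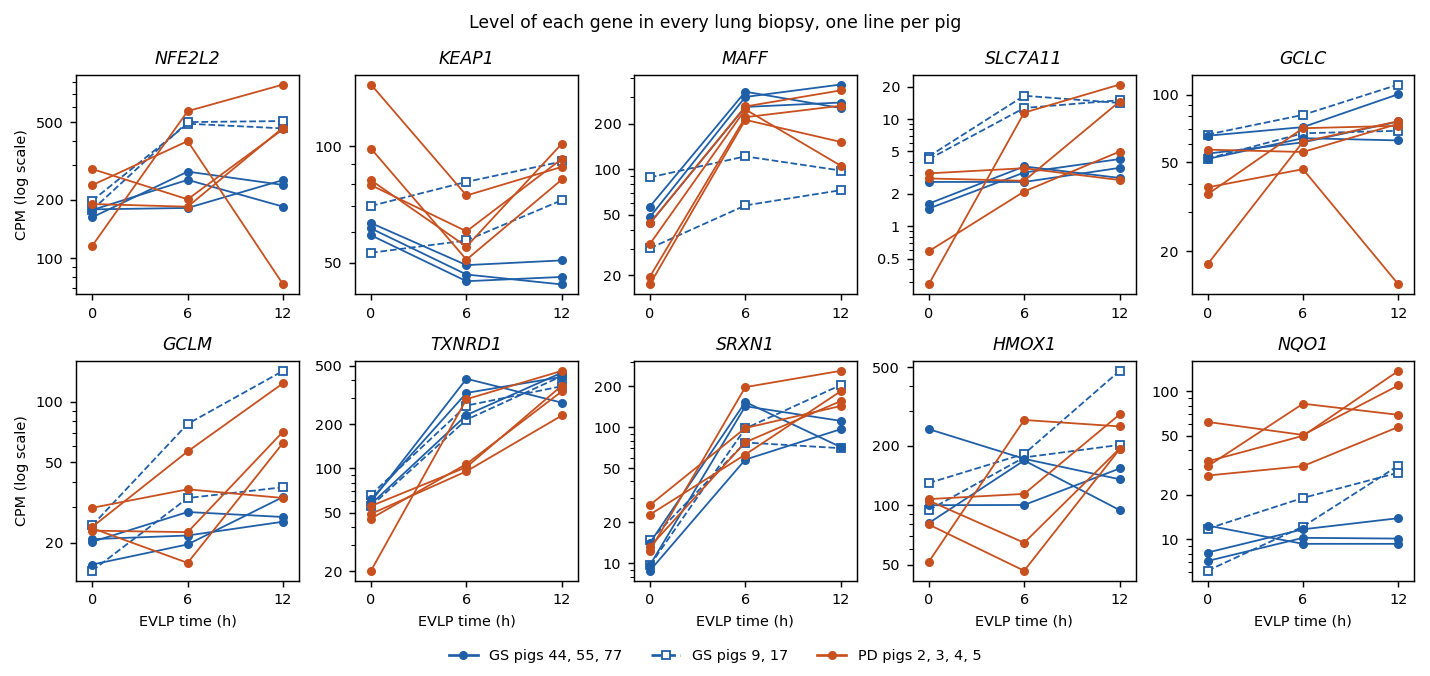
Level of the 10 genes (CPM, log axis) against EVLP time, with a line for each pig, GS in blue and PD in orange. TXNRD1 and SRXN1 are higher at 6h and 12h than at 0h in all 9 pigs, MAFF gains least in GS pigs 9 and 17 (dashed, open squares), and NQO1 lies higher in PD than in GS at every time.

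The sequence before the gene start was read from the reference genome (Sscrofa11.1) with RefSeq's gene starts, 250 bases for each of the 10 members. It was searched on both strands for the core of the antioxidant response element, TGACNNNGC, and for the AP-1 element TGANTCA, the site of the Fos and Jun family. The core was present before 2 of 10 members (NQO1 and GCLC), compared with 9.84% of 20664 pig promoters of the same length, and the AP-1 element before 2 of 10 (NQO1 and SRXN1), compared with 5.48%. These letters are a description of the window and not a shown binding site. Below, capitals mark the match with 10 flanking bases on either side, on the strand of the gene. In NQO1 both elements start at the same base, so they overlap.
NQO1, chr6:17292742-17292770, plus strand, core 210 bases before the start: ctagtcacagTGACTCAGCgagattctga
GCLC, chr7:27209373-27209401, plus strand, core 182 bases before the start: aaaacgaggcTGACCCGGCtcctcgccgc
SRXN1, chr17:34582136-34582162, plus strand, AP-1 element 231 bases before the start: agactcacccTGAGTCAgcctgcccgg
MAFF held neither element in its window, and its 250 bases are shown whole because MAFF is the member that was called higher in every comparison with 0h, without a base in capitals.
MAFF, chr5:9696129-9696378, minus strand: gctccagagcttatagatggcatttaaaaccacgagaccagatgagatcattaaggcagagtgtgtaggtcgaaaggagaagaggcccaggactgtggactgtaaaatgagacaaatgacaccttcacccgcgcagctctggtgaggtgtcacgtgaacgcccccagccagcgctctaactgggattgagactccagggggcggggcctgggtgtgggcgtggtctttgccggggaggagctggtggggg
The window depends on where the gene is taken to start. The count table's annotation (Ensembl) places the starts of TXNRD1, KEAP1 and HMOX1 74186, 7568 and 3103 bases away from RefSeq's, so elements near those Ensembl starts were not searched. The windows searched for these genes lie inside the Ensembl genes, and the counts out of 10 members include them.

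NFE2L2 (ENSSSCG00000015987, chr15:82973648-83146183, minus strand) encodes NRF2 itself. At 0h its level was 197, 177, 162, 178 and 177 CPM in the 5 GS pigs and 237, 287, 116 and 190 CPM in the 4 PD pigs. At 6h the GS values were 491, 500, 278, 181 and 252 CPM, and at 12h they were 464, 507, 238, 252 and 184 CPM. The GS pigs were close together at 0h and spread out during EVLP, pigs 9 and 17 reaching the highest levels. Its log2 FC in GS was 0.79 (SE 0.20, adjusted p 0.0126) at 6h, then 0.71 (SE 0.20, adjusted p 0.0146) at 12h, positive in 5 of 5 pigs but under 2-fold. For pigs 44, 55 and 77 alone, the fitted value was 0.46 at 6h (adjusted p 0.0855) and 0.38 at 12h (adjusted p 0.125). PD levels were 400, 201, 569 and 184 CPM at 6h and 73.2, 460, 780 and 469 CPM at 12h. Pigs 3, 4 and 5 were above their own 0h level at 12h, and pig 2 fell far below it in the library that stood apart. The PD log2 FC was 0.59 (SE 0.61, adjusted p 0.731) at 6h, then 0.92 (SE 0.63, adjusted p 0.40) at 12h, and without that 1 library NFE2L2 was called at 12h (1.44, adjusted p 0.0274), but not without pig 2 at all times (1.41, adjusted p 0.0514). Leaving out pig 4 instead lowered the 12h value to 0.47, not called. AGPS lies on the opposite strand across the start of NFE2L2, and whether the counting used the strand is not given in the sources used here.

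KEAP1 (ENSSSCG00000023667, chr2:69276336-69297835, minus strand), the adaptor that holds NRF2 down, was the only member with a negative log2 FC in all 4 comparisons with 0h, and it was called in none. Without GS pig 44, its value at 12h was 0.00. GS levels were 53.1, 70.2, 61.4, 58.9 and 63.4 CPM at 0h, 57.1, 81.0, 46.7, 44.8 and 49.3 CPM at 6h and 72.6, 91.4, 43.98, 46.0 and 50.8 CPM at 12h. Pigs 9 and 17 thus stood above their own 0h level, whereas pigs 44, 55 and 77 stood below it at both times. Among those last 3 pigs alone, KEAP1 fell by 0.38 on the log2 scale at 6h (adjusted p 0.0367) and by 0.38 at 12h (adjusted p 0.0288), less than the 2-fold set for a call. In PD, the levels were 81.8, 79.4, 145 and 98.7 CPM at 0h, 55.1, 60.3, 74.7 and 51.0 CPM at 6h and 102, 92.9, 88.5 and 82.2 CPM at 12h. All 4 PD pigs had less KEAP1 RNA at 6h than at 0h (log2 FC −0.74, SE 0.30, unadjusted p 0.0334 and adjusted p 0.485 in edgeR) and all 4 had more at 12h than at 6h. S1PR5 overlaps KEAP1 on the same strand, so reads of these genes could be shared or lost in the counting.

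MAFF (ENSSSCG00000030165, chr5:9683658-9696025, minus strand) encodes a small Maf protein, which has a DNA-binding leucine zipper and no activation domain of its own. Its levels at 0h were 88.4, 30.2, 44.03, 56.8 and 48.4 CPM in GS and 44.03, 32.2, 17.4 and 19.6 CPM in PD. At 6h they reached 122, 57.8, 257, 324 and 299 CPM in GS and 259, 248, 212 and 220 CPM in PD. The PD pigs were nearly equal at 6h, inside the range of the GS pigs. At 12h the levels were 98.1, 72.8, 275, 253 and 361 CPM in GS and 331, 105.5, 151 and 262 CPM in PD. MAFF rose in GS by a log2 FC of 1.72 (SE 0.34) at both 6h and 12h (adjusted p 0.0034 and 0.0022), or 3.28-fold (95% interval 2.06 to 5.22) at 6h. In PD it rose by 3.14 (SE 0.40, adjusted p 0.0176) at 6h, or 8.79-fold (95% interval 5.14 to 15.0), and by 2.90 (SE 0.39, adjusted p 0.0136) at 12h. The GS pigs fell into separate ranges at 6h, with log2 changes of 0.46 and 0.94 in pigs 9 and 17 and 2.51 to 2.63 in pigs 44, 55 and 77. With the latter 3 pigs alone, the GS value at 6h was 2.57 (adjusted p 2.8e-05). The PD call at 6h was lost when pig 3, 4 or 5 was left out, with a log2 FC of at least 3.00 and an adjusted p of 0.105 to 0.342, and the PD call at 12h was lost without pig 3 or 5 (3.24 and 2.61, adjusted p 0.104 and 0.246). MAFF overlaps PLA2G6 on the opposite strand.

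Of the 3 small Maf genes, MAFF was the most abundant per kb of exon and had the largest FC. The exon lengths used were 2667 bases for MAFF, 8391 for MAFG and 4152 for MAFK, and the shares below depend on them. They pool all RefSeq transcripts of a gene, whereas the counts are on Ensembl genes. In counts without a length, MAFF was also the highest of the 3 in every library. At 0h, MAFF made up 70.2% to 94.7% of the summed per-kb level of MAFF, MAFG and MAFK in GS and 81.6% to 93.1% in PD. At 6h this share was 79.3% to 97.0% in GS and 97.6% to 99.2% in PD. MAFG had a log2 FC of 0.62 at 6h (adjusted p 0.0114) and 0.75 at 12h (adjusted p 0.0028) in GS, and −0.08 and 0.38 in PD (adjusted p 0.946 and 0.585). MAFK had 0.78 at 6h (adjusted p 0.0468) and 0.49 at 12h (adjusted p 0.169) in GS, and 0.83 and 0.64 in PD (adjusted p 0.607 and 0.438). Neither reached 2-fold in any comparison with 0h.

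**Figure D2:**
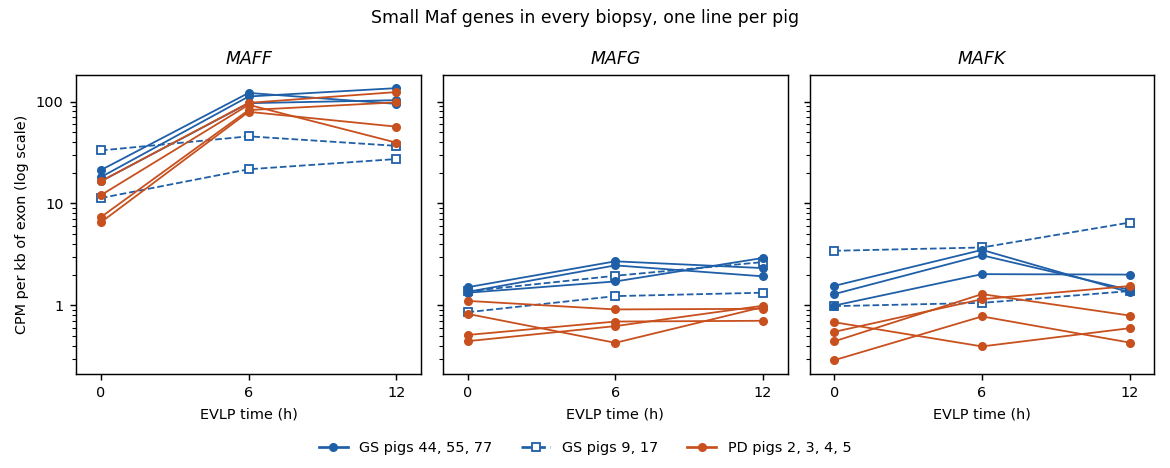
Level of the small Maf genes in CPM per kb of exon (log axis) against EVLP time, a line for each pig. MAFF lies above MAFG and MAFK in all 27 libraries, and its share of their sum at 6h was 97.6% to 99.2% in PD.

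SLC7A11 (ENSSSCG00000022649, chr8:88607884-88940100, plus strand) is the cystine carrier that, together with SLC3A2, brings in the amino acid that limits glutathione synthesis. It was the least abundant member. GS levels were 4.47, 4.22, 2.59, 1.46 and 1.62 CPM at 0h, 16.5, 12.7, 2.59, 3.17 and 3.61 CPM at 6h and 14.1, 15.0, 3.50, 4.23 and 2.82 CPM at 12h. The highest levels at each time were those of pigs 9 and 17, with no overlap with the other 3 pigs. SLC7A11 rose in GS by 1.12 (SE 0.25, adjusted p 0.0063) at 6h, then by 1.19 (SE 0.25, adjusted p 0.0030) at 12h. With pigs 44, 55 and 77 alone these became 0.75 (adjusted p 0.0835) and 0.91 (adjusted p 0.0373), under 2-fold, and without the pig as a block in the fit they were 1.43 and 1.44, with a higher adjusted p (0.164 and 0.124). PD levels were 3.11, 2.79, 0.287 and 0.584 CPM at 0h, 3.48, 2.65, 11.5 and 2.11 CPM at 6h and 2.70, 14.6, 21.0 and 4.97 CPM at 12h. The 0h values of pigs 4 and 5 rest on 5 and 11 counts, so their ratios carry a large counting error. The PD log2 FC at 12h was 2.45 (SE 0.83, adjusted p 0.101). Without the 12h library of pig 2 it was called (3.01, adjusted p 0.0124), and without pig 4 at all times it was 1.85, not called.

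GCLC (ENSSSCG00000001488, chr7:27209564-27253535, plus strand) and GCLM (ENSSSCG00000037549, chr4:123371193-123390135, plus strand) encode the catalytic and modifier subunits of glutamate-cysteine ligase, which makes the first bond of glutathione. In GS, GCLC had 51.6 to 66.3 CPM at 0h, 61.2 to 81.1 CPM at 6h and 62.4 to 111 CPM at 12h. Each of the 5 GS pigs was above its own 0h level at both times, by a fitted 0.24 (SE 0.11, adjusted p 0.119) at 6h, then 0.47 (SE 0.11, adjusted p 0.0055, under 2-fold) at 12h. In PD, GCLC had 17.5 to 56.8 CPM at 0h and 46.5 to 70.8 CPM at 6h. At 12h pigs 3, 4 and 5 lay between 72.5 and 76.1 CPM and pig 2 at 14.2 CPM. The PD log2 FC was 0.67 (SE 0.47, adjusted p 0.65) at 6h, then 0.56 (SE 0.49, adjusted p 0.519) at 12h, the latter 1.01 (adjusted p 0.0521) without the 12h library of pig 2. Leaving out pig 4 at all times lowered the 12h value to 0.11.

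GCLM levels were 24.4, 14.6, 15.6, 20.9 and 20.3 CPM at 0h in GS, and 142, 37.7, 33.8, 25.5 and 26.9 CPM at 12h. Pig 9 stood far above the other GS pigs at 12h. GCLM rose in GS by 1.08 (SE 0.26, adjusted p 0.0069) at 12h, after 0.67 (SE 0.26, adjusted p 0.0697) at 6h. Without pig 9 the 12h value was 0.79 (adjusted p 0.0104) and without both pigs 9 and 17 it was 0.62 (adjusted p 0.0305), in either case under 2-fold. PD levels were 29.8, 23.7, 24.0 and 23.0 CPM at 0h and 33.4, 62.5, 123 and 71.1 CPM at 12h, all 4 pigs being higher at 12h. The fitted PD value was 0.24 (SE 0.41, adjusted p 0.83) at 6h, then 1.42 (SE 0.41, adjusted p 0.0668) at 12h, and 1.74 (adjusted p 0.0057) at 12h without the library of pig 2. Leaving out PD pig 4 at all times lowered the 12h value to 1.18, not called.

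TXNRD1 (ENSSSCG00000000843, chr5:80168523-80288075, minus strand) encodes the cytosolic reductase that recharges thioredoxin with electrons from NADPH. Its levels at 0h were 66.4, 55.5, 61.6, 57.3 and 59.6 CPM in GS and 49.1, 55.6, 20.2 and 45.7 CPM in PD. At 6h they were 268, 215, 326, 231 and 407 CPM in GS and 95.7, 102, 296 and 107 CPM in PD. At 12h they were 362, 425, 419, 448 and 280 CPM in GS and 229, 366, 461 and 335 CPM in PD. No library at 6h or 12h fell to the 0h range of its own group, and 3 of 4 PD pigs were still below the lowest GS pig at 6h. In GS, TXNRD1 rose by 2.24 (SE 0.18, adjusted p 5.7e-05) at 6h, then by 2.66 (SE 0.19, adjusted p 1.1e-05) at 12h, the latter 6.32-fold (95% interval 4.91 to 8.13). PD gave 1.65 (SE 0.47, adjusted p 0.254) at 6h, which DESeq2 called (1.67, adjusted p 0.0182) and which was 1.05 (adjusted p 0.588) without pig 4. TXNRD1 in PD rose by 2.92 (SE 0.48, adjusted p 0.0176) at 12h, or 7.60-fold (95% interval 3.96 to 14.6). The PD call at 12h was lost without pig 3 or pig 5 (adjusted p 0.171 and 0.254), with a log2 FC of 3.01 and 2.95. PD pig 4 had the lowest 0h level of all 9 pigs, and its 0h library also had the highest summed alveolar type 2 markers of that time (78210 CPM, against 26620 to 46430 in the other PD pigs). Its neutrophil (1246 CPM), red cell (239 CPM) and airway (3260 CPM) sums were the highest at 0h too. Its endothelial (1202 CPM), alveolar type 1 (926 CPM) and fibroblast and smooth muscle (1995 CPM) sums were the lowest. NFE2L2, MAFF, SLC7A11, GCLC and HMOX1 also had their lowest 0h level in this library. The part of tissue make-up in the changes of PD pig 4 was not tested.

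SRXN1 (ENSSSCG00000023298, chr17:34582440-34589308, plus strand) encodes sulfiredoxin, which repairs over-oxidised peroxiredoxins. Its levels at 0h were 14.7, 9.66, 9.69, 8.83 and 14.1 CPM in GS and 26.8, 22.8, 12.4 and 13.2 CPM in PD. At 6h they were 77.4, 98.1, 143, 57.9 and 154 CPM in GS and 98.8, 63.1, 198 and 77.7 CPM in PD. At 12h they were 70.3, 205, 112, 96.9 and 71.6 CPM in GS and 144, 185, 260 and 156 CPM in PD. SRXN1 had the largest FC of the 10 members in GS at either time and in PD at 12h. It rose in GS by 3.13 (SE 0.31, adjusted p 0.00013) at 6h, then 3.196 (SE 0.32, adjusted p 6.0e-05) at 12h, or 8.78-fold and 9.17-fold. In PD the log2 FC was 2.44 (SE 0.42, adjusted p 0.0593) at 6h, and SRXN1 rose by 3.27 (SE 0.43, adjusted p 0.0136) at 12h, or 9.62-fold (95% interval 5.34 to 17.3). At 6h it was called in PD by DESeq2 (2.45, adjusted p 2.1e-06), whereas at 12h the edgeR call was lost without pig 3 or pig 5 (3.37 and 3.16, adjusted p 0.104 and 0.246).

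HMOX1 (ENSSSCG00000039745, on an unplaced scaffold at 1951725 to 1963831, plus strand) encodes heme oxygenase 1, which splits heme into biliverdin, iron and carbon monoxide. It was called in none of the comparisons. GS levels were 94.3, 129, 243, 99.9 and 81.1 CPM at 0h, 174, 182, 172, 100.2 and 168 CPM at 6h and 202, 479, 135, 153 and 94.4 CPM at 12h. Pig 44 began highest and declined, while pig 17 ended highest. The GS log2 FC was 0.35 (SE 0.32, adjusted p 0.437) at 6h, then 0.59 (SE 0.32, adjusted p 0.161, 95% interval −0.04 to 1.22) at 12h. For pigs 44, 55 and 77 alone, the 12h value was 1.0-fold (adjusted p 0.9925). Leaving out pig 17 gave a log2 FC of 0.24 at 12h and leaving out pig 44 gave 0.98, neither called. PD levels were 79.8, 105.5, 51.5 and 107 CPM at 0h, 46.5, 64.5, 270 and 114 CPM at 6h and 192, 193, 250 and 288 CPM at 12h. Every PD pig was higher at 12h than at 0h, by a log2 FC of 1.35 (SE 0.47, adjusted p 0.108), which DESeq2 called (1.40, adjusted p 0.0283) and which was 2.30-fold (adjusted p 0.0772) in edgeR without the 12h library of pig 2. The summed level of the 5 red cell markers with a row was 61.7 to 239 CPM at 0h in PD and 4.71 to 13.3 CPM in GS. At 12h it was 19.8, 23.0 and 8.60 CPM in PD pigs 3, 4 and 5 and 367 CPM in pig 2. Its part in the HMOX1 levels was not tested.

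NQO1 (ENSSSCG00000002754, chr6:17292769-17302590, plus strand) encodes a flavoenzyme that reduces quinones by pairs of electrons. It was the member with the clearest difference between the groups before perfusion. Levels at 0h were 6.13, 11.8, 7.13, 12.4 and 8.13 CPM in GS and 31.1, 26.97, 33.6 and 62.2 CPM in PD. At 12h they were 31.5, 28.2, 10.1, 9.31 and 13.9 CPM in GS and 69.4, 57.5, 138 and 110 CPM in PD. Within GS, pigs 9 and 17 gained most and pig 55 ended below its 0h level. The GS log2 FC was 0.38 (SE 0.29, adjusted p 0.336) at 6h, then 0.86 (SE 0.29, adjusted p 0.0339, under 2-fold) at 12h, and 0.28 (adjusted p 0.367) at 12h for pigs 44, 55 and 77 alone. Leaving out pig 9 gave 0.53, not called, and leaving out pig 55 gave a called 1.21 (adjusted p 0.0100). In PD it was 0.50 (SE 0.37, adjusted p 0.659) at 6h, then 1.27 (SE 0.37, adjusted p 0.066) at 12h, positive in 4 of 4 pigs at 12h. Without the 12h library of pig 2 it was called in PD (1.44, adjusted p 0.0125). Leaving out PD pig 4 at all times lowered the 12h value to 1.03, not called.

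**Figure D3:**
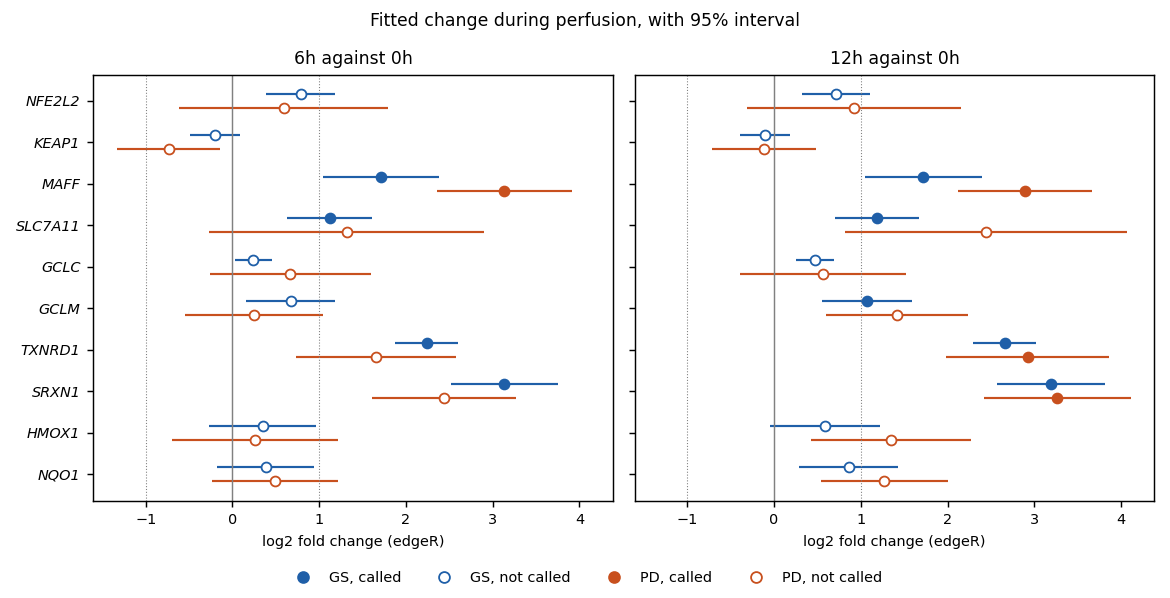
Fitted log2 FC of each gene at 6h and 12h against 0h in GS (blue) and PD (orange), with 95% intervals by the normal approximation and filled points for called values. SRXN1, TXNRD1 and MAFF have the highest values at 12h in GS (3.196, 2.66 and 1.72), and PD intervals are wider than GS intervals for all 10 genes.

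Levels of different genes were compared per kb of exon. The length pools all RefSeq transcripts of a gene, whereas the counts are on Ensembl genes. It ran from 1549 bases for HMOX1 to 10108 for NFE2L2, and the order of the genes depends on it. At 0h HMOX1 had the highest median, 64.5 CPM per kb in GS (range 52.3 to 157), above the range of every other member, and 59.8 in PD (33.3 to 69.2), where the ranges of KEAP1 (24.9 to 45.4) and NQO1 (15.9 to 36.6) overlapped it. KEAP1, MAFF, NFE2L2 and TXNRD1 followed in GS, with medians between 17.2 and 19.3 CPM per kb and overlapping ranges, so they cannot be put in order. SLC7A11 was lowest, at 0.277 in GS (0.157 to 0.478) and 0.181 in PD (0.031 to 0.333). At 12h TXNRD1 (median 121, range 80.8 to 129), HMOX1 (99.0, 60.9 to 309) and MAFF (94.95, 27.3 to 136) led in GS, again with overlapping ranges. In PD at 12h the leading medians were those of HMOX1 (143, 124 to 186), TXNRD1 (101.3, 66.2 to 133) and MAFF (77.5, 39.6 to 124). SRXN1 had medians of 3.80 at 0h and 38.0 at 12h in GS, and of 7.07 and 66.8 in PD. Its range at 0h in GS overlapped those of GCLM and NQO1. At 12h it overlapped those of 6 members, from GCLM to HMOX1.

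**Figure D4:**
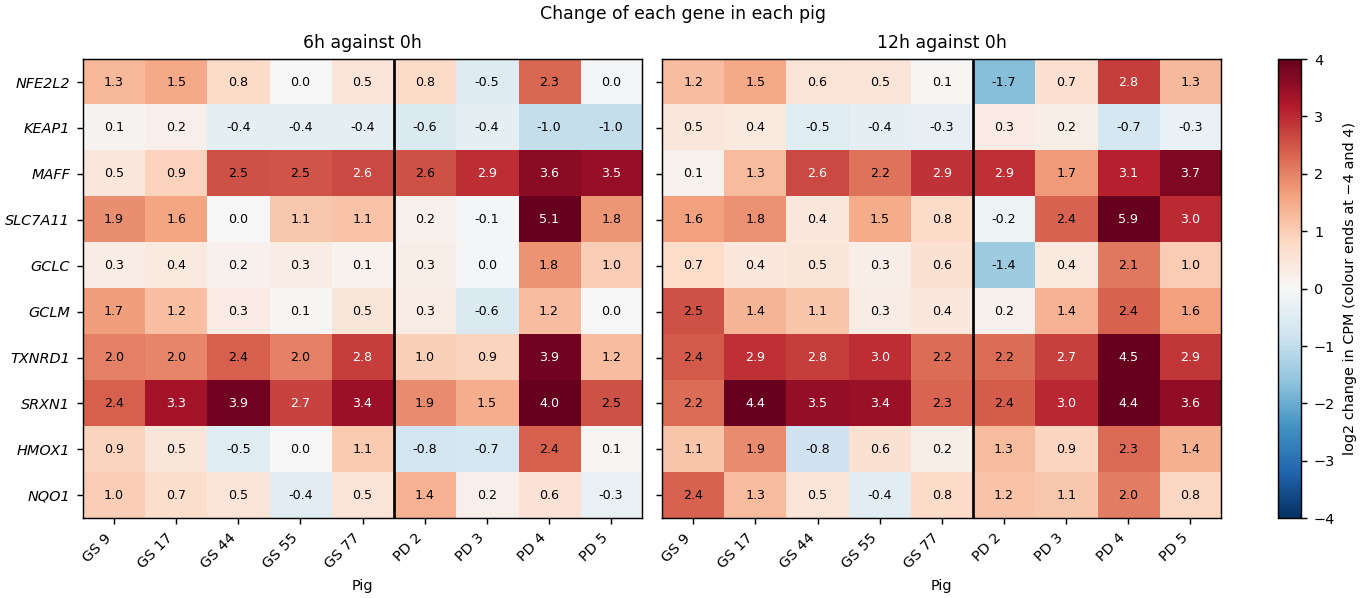
Log2 change in CPM of each gene in each pig at 6h (left) and 12h (right) against the pig's own 0h biopsy, red for higher and blue for lower. PD pig 4 has the highest change of the 9 pigs for TXNRD1 at 6h (3.87), and PD pig 2 at 12h is below its 0h level for NFE2L2 (−1.70) and GCLC (−1.43).

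Between 6h and 12h no member passed the test. With edgeR, 0 of 10 members were called at an adjusted p under 0.05 in GS, as were 0% of all genes, and 0 of 10 in PD, again 0% of all genes. DESeq2 called 0 members in either group. At an unadjusted p under 0.05 there was 1 of 10 members in GS (TXNRD1, 0.42, p 0.0319), where 4.74% of all genes had such a p, and there were 3 of 10 in PD, where 10.1% had (TXNRD1, 1.27, p 0.0168, GCLM, 1.17, p 0.0159, and HMOX1, 1.09, p 0.0444). TXNRD1 was higher at 12h than at 6h in 4 of 4 PD pigs and 4 of 5 GS pigs. MAFF differed between 6h and 12h by 0.01 in GS (SE 0.32) and by −0.24 in PD (SE 0.37).

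Whether dialysis altered the response was addressed by the difference of the changes from 0h, PD minus GS. As an interaction term in edgeR, 0 of 10 members passed an adjusted p under 0.05 at 6h and 0 at 12h, as did 0% of all genes at either time, and DESeq2 likewise called 0 members. At an unadjusted p under 0.05 there was 1 of 10 members at each time, MAFF, a share near the 5.85% of all genes at 6h and 5.98% at 12h. Its FC was larger in PD by 1.41 (SE 0.52, 95% interval 0.39 to 2.42, unadjusted p 0.0131, adjusted p 0.783) at 6h, then by 1.149 (SE 0.52, 95% interval 0.13 to 2.17, adjusted p 0.826) at 12h. When only GS pigs 44, 55 and 77 were compared with PD, this difference was 0.58 at 6h (adjusted p 0.889) and 0.35 at 12h (adjusted p 0.939). In the same edgeR comparison the 12h value of NQO1 went from 0.38 to 1.03 (unadjusted p 0.0482, adjusted p 0.76). That of HMOX1 at 12h went from 0.71 to 1.38 (unadjusted p 0.052, adjusted p 0.76). The 0h difference of MAFF, PD minus GS, was −0.88 (SE 0.34, adjusted p 0.0591), whereas its PD levels at 6h, of 212 to 259 CPM, lay within the GS range of 57.8 to 324 CPM. For the other 9 members, the 95% interval of the interaction included 0 at both times. Those of TXNRD1 reached from −1.55 to 0.33 at 6h and from −0.70 to 1.14 at 12h, so that a larger change in either group lies within them. Without PD pig 4, the 6h value of TXNRD1 was −1.24 (unadjusted p 0.0013, adjusted p 0.69), and its rank test gave an exact p of 0.0357. That of SRXN1 was −1.20 without the same pig (unadjusted p 0.0223, adjusted p 0.797). Without PD pig 2, SLC7A11 at 12h went from 1.21 to 2.10 (unadjusted p 0.0096, adjusted p 0.0946, rank test exact p 0.0357) and KEAP1 at 6h from −0.55 to −0.61 (unadjusted p 0.0367, adjusted p 0.257). Without PD pig 4, SLC7A11 at 12h went the other way, from 1.21 to 0.59.

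The exact two-sided Wilcoxon rank test on the changes of rlog values, in which 4 PD pigs are set against 5 GS pigs, can give no p below 0.0159. At 6h 1 of 10 members had an unadjusted p under 0.05, against 6.04% of all genes, and at 12h 0 of 10, against 4.04%. The member was KEAP1, with a mean change of −0.44 ± 0.20 (SD) in PD and −0.07 ± 0.18 in GS (exact p 0.0159, adjusted p 0.501), no PD pig overlapping the GS pigs. The gap was very small on log2 CPM, with −0.3957 in PD pig 3 and −0.3953 in GS pig 44. With only GS pigs 44, 55 and 77 against PD, the edgeR interaction of KEAP1 at 6h went from −0.55 to −0.34 (adjusted p 0.889). KEAP1 started higher in PD, and its levels at 6h overlapped (51.0 to 74.7 CPM in PD and 44.8 to 81.0 CPM in GS). MAFF had an exact p of 0.0635 at 6h on rlog values and was below 0.05 on log2 CPM.

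**Figure D5:**
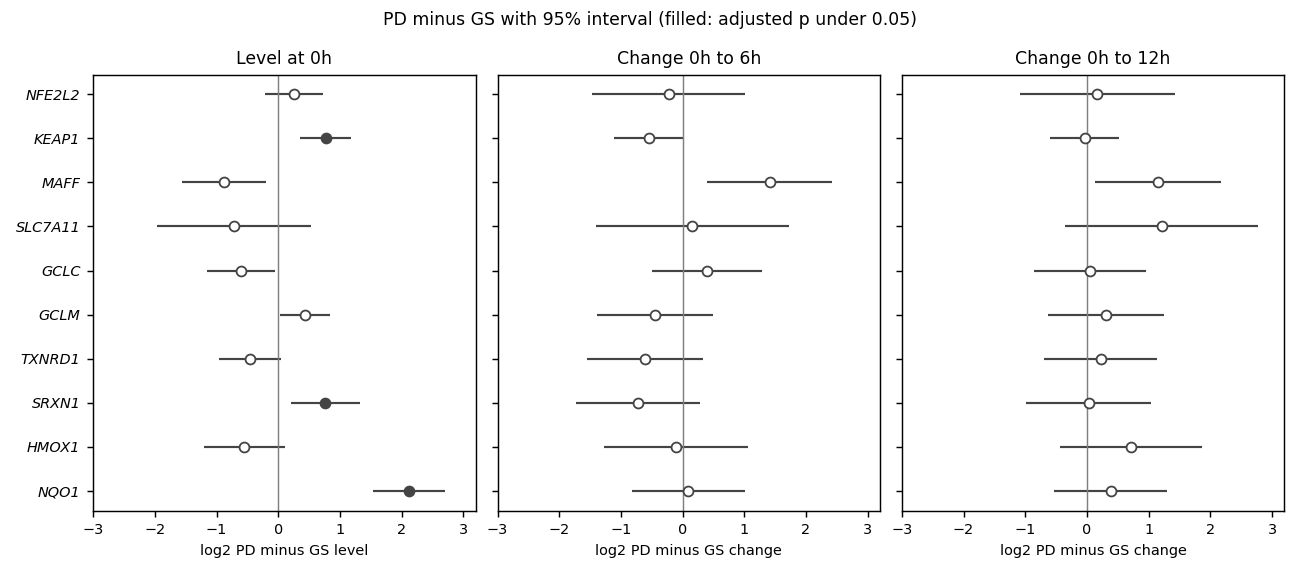
PD minus GS for each gene, as the level at 0h (left) and as the difference in log2 change from 0h to 6h (middle) and to 12h (right), with 95% intervals and filled points for an adjusted p under 0.05. NQO1 differs most at 0h (2.12), and MAFF is the member whose interval lies above 0 in the middle and right panels.

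At 0h, before any dialysis, 1 of 10 members was called different at 2-fold or more, against 29.1% of all genes, and 3 by the adjusted p alone, against 40.6%. NQO1 was higher in PD by 2.12 (SE 0.30, adjusted p 0.00022), or 4.35-fold (95% interval 2.90 to 6.53). KEAP1 was higher by 0.77 (SE 0.21, adjusted p 0.0118) and SRXN1 by 0.76 (SE 0.28, adjusted p 0.0496), both under 2-fold. The 0h ranges of NQO1 and of KEAP1 did not overlap between the groups, as was so for 34.2% of all genes, nor did those of NQO1 at 6h (31.2 to 82.5 CPM in PD and 9.31 to 19.0 in GS) or at 12h (57.5 to 138 and 9.31 to 31.5), where 19.9% and 20.5% of all genes did not overlap. Compared as levels at 6h and 12h, NQO1 had an exact rank test p of 0.0159 at each time, with an adjusted p of 0.0787 and 0.0783. Summed markers of other cell types differed between the groups at 0h too, some higher and some lower in PD. The summed level of the 6 alveolar type 2 markers was 26620 to 78210 CPM in PD and 6918 to 9625 CPM in GS, and that of 5 neutrophil markers 626 to 1246 and 150 to 395 CPM. That of 4 airway secretory and ciliated markers was 1155 to 3260 and 260 to 1221 CPM, with overlap. Endothelial markers were lower in PD (1202 to 1713 CPM, against 1907 to 2690 in GS), as were macrophage markers (1624 to 1815 against 1844 to 3422), neither with overlap. Their part in the NQO1, KEAP1 and SRXN1 differences was not tested.

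The wider pathway was read from a list of 62 further antioxidant genes, of which 61 have a row. The counts are of rows tested, 61 in GS and 60 in PD. CES1 has 2 rows, neither called, and CBR1 was too low to be tested. In GS 4 of 61 were called higher at 6h and 7 at 12h, to be read against the 5.5% and 6.99% of all genes called higher, and 1 was lower at each time, where 5.56% and 8.66% of all genes were. In PD the counts were 0 of 60 tested at 6h, where 0.135% of all genes were called higher, and 5 higher and 2 lower at 12h, where 3.22% were called higher and 2.76% lower. The median log2 FC of the list was 0.17 and 0.25 in GS and −0.12 and 0.28 in PD at 6h and 12h, below the median of the 10 members each time. At 0h, 15 of 60 were higher in PD and 4 lower by at least 2-fold, a share near the 29.1% of all genes, with a median difference of 0.49. BACH1, the repressor that can pair with small Maf proteins, rose in GS by 1.01 (adjusted p 0.0056) at 6h and 1.26 (adjusted p 0.0011) at 12h. In PD its value was 1.72 (adjusted p 0.19) at 6h, and at 12h it rose by 1.76 (adjusted p 0.0447), with 3 of 4 pigs higher. OSGIN1, a growth-inhibiting NRF2 target, rose in GS by 2.24 (SE 0.33, adjusted p 0.00071) at 6h and 2.10 (adjusted p 0.00058) at 12h, and in PD had 1.68 and 2.95 (adjusted p 0.59 and 0.0969).

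SLC3A2, the partner chain of SLC7A11, rose in GS by 1.28 (adjusted p 0.0010) at 6h and 1.17 (adjusted p 0.00093) at 12h, and in PD by 2.26 (adjusted p 0.0197) at 12h. TXNIP, the inhibitor that binds thioredoxin, rose in GS by 1.198 (adjusted p 0.0174) at 6h and 1.54 (adjusted p 0.0032) at 12h, and in PD had 2.17 and 1.40 (adjusted p 0.275 and 0.213). SQSTM1, a cargo receptor that can draw KEAP1 away from NRF2, rose at 12h in GS by 1.30 (adjusted p 0.00010) and in PD by 1.59 (adjusted p 0.0283). SOD2, the mitochondrial superoxide dismutase, also rose at 12h in both groups, by 1.27 (adjusted p 0.0011) in GS and 2.34 (SE 0.50, adjusted p 0.0277) in PD. GPX3, the secreted glutathione peroxidase, rose in PD at 12h by 2.19 (SE 0.39, adjusted p 0.0179) and had 0.95 (adjusted p 0.0149, under 2-fold) in GS. SLC40A1, the iron exporter ferroportin, fell by 1.45 on the log2 scale (adjusted p 0.0136) in GS at 6h, by 1.13 (adjusted p 0.0383) in GS at 12h and by 2.65 (SE 0.67, adjusted p 0.0425) in PD at 12h. IDH1, a cytosolic source of NADPH, fell by 1.45 (SE 0.36, adjusted p 0.0389) in PD at 12h and had −0.48 (adjusted p 0.115) in GS.

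How the members moved together was described by the correlation of log2 CPM, each pig's mean taken out, over the 27 libraries. These libraries come from 9 pigs and share the course from 0h to 12h, so the values carry no p. TXNRD1 and SRXN1 were the closest pair (r 0.97), followed by NQO1 and GCLM (0.87), MAFF and SRXN1 (0.86), TXNRD1 and SLC7A11 (0.85) and NFE2L2 and GCLC (0.85). MAFF and NFE2L2 were less alike (r 0.38), and KEAP1 had its lowest value with MAFF (−0.62). Among all genes with a symbol, the closest to MAFF were SOCS3, a feedback inhibitor of cytokine signaling (r 0.97), RND3, a small GTP-binding protein (0.97), and PRDM1, a transcriptional repressor (0.96). The closest to HMOX1 were NECTIN1, an adhesion molecule (0.91), KCTD5 (0.90) and TNPO2 (0.87). No member was among these 6 genes.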

How the data were processed

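RNA of lung biopsies was sequenced as stranded mRNA libraries in pairs of reads. The authors demultiplexed with bcl2fastq 2.2.18.12, trimmed with Cutadapt 1.15, aligned with TopHat2 2.0.14 to Sscrofa11.1 (Ensembl release 101) and, per the labels, counted with featureCounts of Subread 1.6.0. Neither its strand setting nor its treatment of multi-mapping reads is given in the sources used here, nor is which library came from frozen and which from RNAlater tissue. The deposited counts per gene (31908 genes, 27 libraries) were used as they are. No 2 libraries were copies (smallest chi-square per degree of freedom 39.8).

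Robust two-sided quasi-likelihood tests were run in edgeR 4.0.16 (with limma 3.58.1 under R 4.3.3) after filterByExpr and TMM, with Benjamini-Hochberg adjustment over all genes tested. The pig was a block, since the biopsies of a number come from the same animal by the labels. The mean correlation of residuals between libraries of 1 pig was 0.53 for GS and 0.11 for PD (different pigs −0.16 and −0.12). The pigs are the replicates. The groups were fitted separately for changes from 0h, and together for 0h levels and the interaction. rlog values came from DESeq2 1.42.0. CPM used TMM library sizes, with a prior count of 2 for log2 CPM. An SE from edgeR is the size of the log2 FC divided by the square root of its F statistic. Intervals are at 95%, by the normal approximation, and are narrower than the tests imply. For NQO1 in PD at 12h against 6h, the interval was 0.05 to 1.505 while the edgeR test gave an unadjusted p of 0.0598. Scripts were tested on simulated data.

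All 10 members are named, and from the list of other antioxidant genes up to 3 in each direction per comparison with 0h that were called and moved alike in every pig. For MAFF and HMOX1 the 3 genes with the highest r are named. MAFG, MAFK, BACH1 and the overlapping genes were named after their values were seen. The members and lists were chosen with earlier results of these data known. Alternatives were DESeq2, its size factors, no low-count filter, no block, all libraries in 1 fit, no fold threshold, log2 CPM for rlog and each pig left out. After seeing the data, fits of GS pigs 44, 55 and 77 alone and without the 12h library of PD pig 2 were added.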

Additional observations from a re-analysis of the deposited data

Results flagged for a closer look

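Among 100 tests for a sample lying apart from its group, 6 values of members were picked out, where chance gives about 1 in 20. GS pig 55 had a lower HMOX1 level at 6h than the other GS pigs, with 6.65 log2 CPM against 7.40 to 7.51. PD pig 2 had a lower GCLC level at 12h, with 3.84 log2 CPM against 6.18 to 6.25 in the other PD pigs, in the library with the fewest counts of the series. GS pig 9 had more GCLM at 12h, with 7.15 log2 CPM against 4.67 to 5.24. PD pig 2 had more GCLM at 0h, with 4.90 log2 CPM against 4.53 to 4.59. PD pig 4 had more TXNRD1 at 6h, with 8.21 log2 CPM against 6.58 to 6.75, and a larger TXNRD1 change from 0h, with a log2 change of 3.87 against 0.88 to 1.23.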

How the results depend on the processing

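Of 1250 alternative values of single members, 1196 kept their side of the threshold, among them 72 in which an uncalled value changed sign, 33 passed it newly, 19 no longer passed and 2 reversed. The total includes the interaction and the comparisons of 12h with 6h, where no member passed in any fit. It therefore says little about how firm the PD counts below are. Both that reversed were KEAP1 in the rank test without the replicate block, where levels and not changes are compared. PD minus GS was then 0.07 at 6h and 0.42 at 12h (exact p 0.556 and 0.0317). The count of members called in GS at 12h (5) was 3 with no replicate block, 3 with pigs 44, 55 and 77 only and 8 with no fold threshold. The PD count at 6h (1) was 3 with DESeq2, 3 with all 27 libraries in 1 fit, and 2 with no low-count filter, with no replicate block or without the 12h library of pig 2. The PD count at 12h (3) was 7 with DESeq2, 7 with all libraries in 1 fit and 7 without that library. The shares of all genes given above are those of the main fits. None is given for the alternative fits, so their counts cannot be set against one. The rank test count at 6h (1) was 2 on log2 CPM, that at 12h (0) was 2 without the block (KEAP1 and NQO1), and the count at 0h (1) was 3 with no fold threshold. With each pig left out in turn the counts ran from 3 to 4 in GS at 6h, 4 to 6 in GS at 12h, 0 to 2 in PD at 6h, 0 to 6 in PD at 12h, 1 to 2 and 0 to 1 in the rank test at 6h and 12h, and 1 to 2 at 0h, and remained 0 for 12h against 6h in each group and for the interaction. PD counts of 0 came without pig 3 or 5 at both times and without pig 4 at 6h, and the 6 without pig 2. The cause was not tested. Counting error is largest for SLC7A11, with 5 counts in PD pig 4 at 0h.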
